A study of Homo sapiens with 6 samples.

Results

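The genes examined here are 9 genes of transforming growth factor-β (TGF-β) signalling, chosen by name: the ligands TGFB1, TGFB2 and TGFB3, the ligand-storage gene LTBP1, the receptors TGFBR1, TGFBR2 and TGFBR3, and the targets SKIL and TGFBI. All 9 were found among the 37803 gene symbols listed once in each of the 2 deposited tables. They were measured by RNA-seq in the human embryonic stem cell line H1 after 2 days of differentiation toward blood. The cells carried no deletion (WT, n = 2) or a SNAI1 deletion, in groups labelled SNAI1_KO_1 (n = 2) and SNAI1_KO_2 (n = 2). All 3 groups were grown in custom mTeSR1 medium with activin A and BMP4, which per the labels were at 40 ng/ml and 50 ng/ml. The study's methods give those doses the other way round. The knockout lines were made by CRISPR/Cas9 with frameshift mutations, and the labels do not say whether the number in a group's name is a line. The labels do not say whether the libraries of a group came from separate cultures, and the study's methods speak of independent experiments in general without naming these libraries, so p-values measure the spread between these samples, which may be technical.

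TGF-β ligands are secreted in a latent complex with their own propeptide and a latent TGF-β binding protein, which ties the complex to the extracellular matrix. The freed ligand binds the type II receptor TGFBR2, which phosphorylates the type I receptor TGFBR1, and TGFBR1 in turn phosphorylates SMAD2 and SMAD3. Activin A, present in the medium, reaches the same SMADs through its own receptors. TGF-β is a classical inducer of SNAI1 during epithelial-to-mesenchymal transition, and SNAI1 protein binds E-boxes in the promoters it represses.

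FPKM (fragments scaled by transcript length and by mapped fragments) sums per library ran from 624414 to 633851 in the first table and from 603399 to 605924 in the second. Absolute depth is unknown. Each table held 1 library of every group and was normalized separately, so knockout and WT were compared within a table. SNAI1 itself had an FPKM of 36.4 and 37.1 in WT and of 47.8 to 68.6 in the knockout libraries. A frameshift need not remove the mRNA, and directions are therefore given for libraries as they are labelled. All 8 mesoderm markers were present at a mean FPKM of at least 1. Their summed FPKM was 1671 to 1713 in WT and 1102 to 1184 in the knockout libraries, with 6 called lower (an adjusted p under 0.05), MIXL1 not called and T (brachyury) higher, at 17.8 and 38.7 in WT and 130 to 251 in knockout (adjusted p = 0.000142 by limma). The 5 pluripotent and epithelial markers summed to 534.1 to 685.7 in WT and 914.9 to 1245 in knockout, with 4 called higher and SOX2 not called. The 3 endoderm markers summed to 2816 to 3333 and 1265 to 1920, a sum made up mostly of CER1. CER1 and FOXA2 were called lower and SOX17 higher, at 63.9 and 251 in WT and 120 to 338 in knockout (adjusted p = 0.0319). Of 3 blood and platelet markers, PTPRC and PF4 were listed at 0 in every library, and the 3 together summed to at most 0.613 in any library. The sums in WT and knockout libraries were 21.1 to 24.7 and 17.0 to 39.7 for fibroblast markers (LUM called lower), 26.7 to 43.0 and 27.0 to 49.3 for amnion and trophoblast markers (GATA3 called lower and TFAP2A higher), and 1.44 to 2.42 and 0.0463 to 0.327 for neural markers. Markers of several cell types thus moved with the groups, in both directions within the mesoderm, endoderm and amnion and trophoblast lists, and their part in every difference given here was not tested. In bulk RNA, fewer cells of a type and less RNA per cell cannot be told apart.

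The targets TGFBI and SKIL and the storage gene LTBP1 were higher in the knockout libraries than in WT, while no ligand or receptor of the 9 genes passed the test. The 13909 genes whose FPKM averaged 1 or more over the libraries were tested with limma on log2(FPKM + 1), with the table as a block and an adjusted p threshold of 0.05. TGFB2, TGFB3 and TGFBR3 fell below the minimum, which left 6 of the 9 genes. For both knockout groups against WT, 3 of these 6 were called, all higher. Of all genes tested, 31.3% were called, 15.8% higher and 15.4% lower. The 9 genes were chosen with earlier results of these data known, so no conclusion is drawn from the higher share. Each knockout group on its own gave 2 of 6, TGFBI and SKIL, against 23.9% of all genes for SNAI1_KO_1 and 25.5% for SNAI1_KO_2. Without the WT library of the second table, TGFBI alone was called for both groups together (1 of 6). Leaving out either WT library or either library of the group took the count to 0 for SNAI1_KO_1 and to between 0 and 1 for SNAI1_KO_2. The median log2 difference of the 6 genes was 0.085, and that of all genes tested was -0.05.

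**Figure D1:**
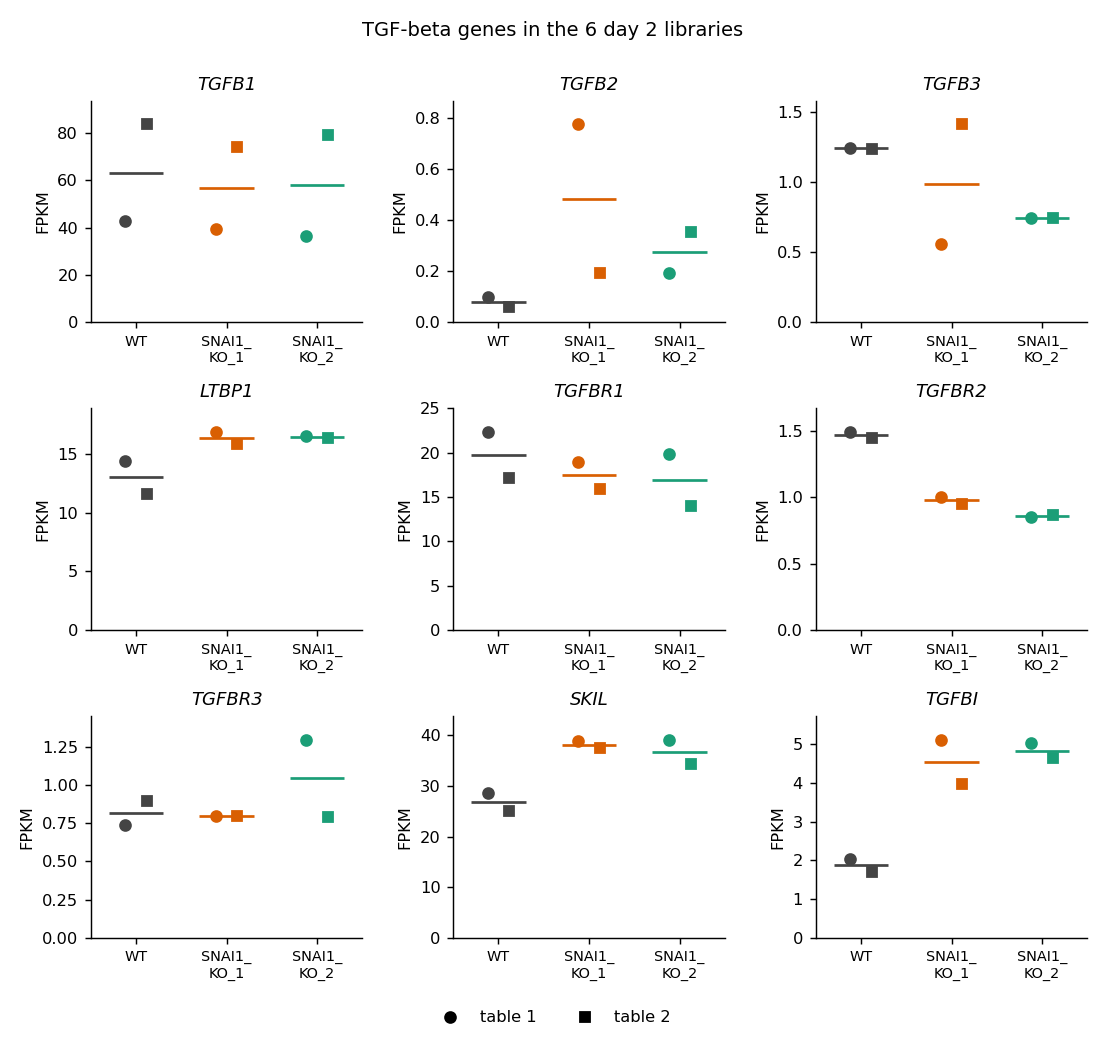
FPKM of the 9 TGF-β genes (vertical axes, each from 0) in the WT, SNAI1_KO_1 and SNAI1_KO_2 libraries, with 1 point per library, circles for the first table, squares for the second and a line at each group's mean. All 4 knockout points lie above both WT points for TGFB2, LTBP1, SKIL and TGFBI and below them for TGFBR2, and the groups overlap for the other genes.

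TGFBI encodes a secreted matrix protein that was identified as a TGF-β-induced transcript. Its FPKM was 2.04 and 1.70 in WT, here and for each gene that follows with the first table's value first. The values were 5.11 and 3.96 in SNAI1_KO_1 and 5.01 and 4.63 in SNAI1_KO_2. Every knockout library lay above both WT libraries, at 2.33 to 2.73 times the WT value of its table. The log2 difference was 0.98 ± 0.11 (SE, 95% interval 0.70 to 1.26, adjusted p = 0.00305 by limma) for both knockout groups. It was 0.94 for SNAI1_KO_1 (adjusted p = 0.0073 by limma) and 1.02 for SNAI1_KO_2 (adjusted p = 0.00524). Without the block, the SNAI1_KO_1 call was lost. The SNAI1_KO_1 call was lost without WT of the first table (adjusted p = 0.0551), WT of the second (0.0547), SNAI1_KO_1 of the first (0.0771) or SNAI1_KO_1 of the second (0.051), and the SNAI1_KO_2 call without SNAI1_KO_2 of the second (0.0603). For both groups together the adjusted p lay between 0.000911 and 0.0388 over the alternatives in which TGFBI was tested, including those that leave out a library.

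SKIL (SnoN) binds SMAD complexes and represses their targets, and is itself induced by TGF-β as a negative feedback gene. Its FPKM was 28.6 and 25.0 in WT, 38.9 and 37.4 in SNAI1_KO_1, and 39.2 and 34.3 in SNAI1_KO_2. The knockout libraries were thus 1.36 to 1.495 times their WT library, with no overlap between knockout and WT. The log2 difference was 0.47 ± 0.062 (SE, 95% interval 0.31 to 0.62, adjusted p = 0.00496 by limma) for both groups, 0.50 for SNAI1_KO_1 (adjusted p = 0.0086) and 0.44 for SNAI1_KO_2 (adjusted p = 0.0113). The call for both groups was lost without the WT library of the second table (adjusted p = 0.0558) and without the block (adjusted p = 0.115). Each single-group call was lost on leaving out either WT library or either library of that group, with an adjusted p from 0.0509 to 0.0758 for SNAI1_KO_1 and from 0.0598 to 0.0936 for SNAI1_KO_2.

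The sequences upstream of these target genes are shown because SMAD proteins and SNAI1 act at promoters. RefSeq promoter windows of GRCh38.p14 were matched by symbol, which gave 20 windows for the 9 genes, some of them overlapping. The 250 bases before each start were searched on both strands for the E-box CAGGTG, the SMAD box CAGACA and, chosen after the data were seen, the GC box GGGCGG. A position can match no more than 1 of these motifs. In the lines for TGFBI and SKIL, the capitals mark GC boxes on either strand.
TGFBI, chr5:136028738-136028987, plus strand: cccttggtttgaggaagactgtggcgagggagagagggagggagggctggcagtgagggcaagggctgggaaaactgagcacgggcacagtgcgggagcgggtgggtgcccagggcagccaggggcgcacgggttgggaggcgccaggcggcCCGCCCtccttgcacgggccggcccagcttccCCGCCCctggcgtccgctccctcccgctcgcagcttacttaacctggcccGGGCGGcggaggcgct
SKIL, chr3:170357465-170357714, plus strand: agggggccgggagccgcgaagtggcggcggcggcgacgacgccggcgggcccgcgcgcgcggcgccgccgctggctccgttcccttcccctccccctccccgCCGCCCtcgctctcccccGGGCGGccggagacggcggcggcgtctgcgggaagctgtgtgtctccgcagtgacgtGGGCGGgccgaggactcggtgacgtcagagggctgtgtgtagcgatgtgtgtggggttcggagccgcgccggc
Each of these windows held 3 GC boxes and neither an E-box nor a SMAD box, and 72.8% of the TGFBI bases and 78.4% of the SKIL bases were G or C. Of all 35116 promoter windows, 42.6% held a GC box, and 9 of the 20 windows of the 9 genes did.

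LTBP1 encodes a latent TGF-β binding protein, which holds the ligand complex in the matrix. Its FPKM was 14.5 and 11.6 in WT, 16.9 and 15.9 in SNAI1_KO_1, and 16.6 and 16.4 in SNAI1_KO_2. All 4 knockout libraries were above both WT libraries, at 1.15 to 1.41 times the WT value of their table, and the higher ratios were those of the second table. The log2 difference was 0.32 ± 0.086 (SE, 95% interval 0.10 to 0.54, adjusted p = 0.0429 by limma) for both groups. Neither group alone passed, with an adjusted p of 0.0772 for SNAI1_KO_1 and 0.0687 for SNAI1_KO_2. For both groups together, the adjusted p by limma was 0.119 without the minimum on mean FPKM and 0.0665 without the mean-variance trend. The call was lost on leaving out any 1 of the 6 libraries, with an adjusted p from 0.0692 without WT of the first table to 0.253 without that of the second, where the difference itself was 0.20, and without the block the adjusted p was 0.30. Upstream of LTBP1, 2 windows held the SMAD box and another window held none. The box is in capitals here and is read on the other strand in the second stretch.
LTBP1, chr2:33134268-33134297, plus strand: gacagatgttttCAGACAtgccgcatgcct
LTBP1, chr2:33134463-33134492, plus strand: ggtattgctcttTGTCTGcccgtgaataaa
In the first stretch the box starts 89 bases before the start of its window's transcript. In the other it starts 121 bases before the start of a different window's transcript.

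TGFB1, the most abundant of the 3 ligands, did not pass the test. Its FPKM was 42.7 and 83.6 in WT, 39.3 and 73.9 in SNAI1_KO_1, and 36.3 and 79.3 in SNAI1_KO_2, so that its values followed the table more than the group. Within a table, the 4 knockout libraries had 0.85 to 0.95 times the WT value. The log2 difference was -0.15 ± 0.064 (SE, 95% interval -0.31 to 0.011, adjusted p = 0.135 by limma).

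TGFB2 and TGFB3, the other ligand genes, were near the lower end of the scale and were not tested. TGFB2 FPKM was 0.101 and 0.0601 in WT, 0.775 and 0.194 in SNAI1_KO_1, and 0.195 and 0.353 in SNAI1_KO_2. All 4 knockout values lay above both WT values, at 1.94 to 7.70 times WT, but at levels under 1 FPKM. With the filter removed, the log2 difference of 0.33 had an adjusted p of 0.395. TGFB3 FPKM was 1.24 and 1.23 in WT, 0.561 and 1.41 in SNAI1_KO_1, and 0.745 and 0.741 in SNAI1_KO_2. The SNAI1_KO_1 libraries lay on either side of WT, and the adjusted p without the filter was 0.48. Upstream of TGFB2, the SMAD box started 53 bases before the start.
TGFB2, chr1:218345271-218345300, plus strand: ctttgttgaaggCAGACAcgtggttcagag
The capitals mark the box.

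TGFBR1, the type I receptor kinase, had an FPKM of 22.3 and 17.2 in WT, 19.0 and 15.9 in SNAI1_KO_1, and 19.9 and 14.0 in SNAI1_KO_2. Each knockout library was below the WT library of its own table, at 0.82 to 0.93 times its value, while the groups overlapped across tables. The log2 difference was -0.19 ± 0.078 (SE, 95% interval -0.39 to 0.0047, adjusted p = 0.121 by limma). TGFBR1 was the 1 gene of the 9 with the E-box, which was in 3 of its 8 windows. The E-box is in capitals in the lines for this gene.
TGFBR1, chr9:99103519-99103548, plus strand: gtctagggacctCAGGTGgcacaaagtcca
TGFBR1, chr9:99103829-99103858, plus strand: aggaagccttcaCAGGTGgggaaaatgctc
TGFBR1, chr9:99105394-99105423, plus strand: gggccgggggcgCAGGTGgcggcgccgggg
These boxes start 116, 211 and 169 bases before the start of their window's transcript. Of all promoter windows, 17.5% held the E-box, and 3 of the 20 windows of the 9 genes did. The SMAD box was in 13.6% of all windows and in 5 of the 20 windows here, those of TGFB2, LTBP1 and TGFBR1.

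TGFBR2, the type II receptor that binds the ligand, had an FPKM of 1.49 and 1.44 in WT. Its FPKM was 1.004 and 0.952 in SNAI1_KO_1 and 0.849 and 0.869 in SNAI1_KO_2. It was the 1 gene of the 9 with all 4 knockout libraries below both WT libraries, at 0.57 to 0.67 times the WT value. The log2 difference was -0.36 ± 0.14 (SE, 95% interval -0.72 to -0.0049) and did not pass, with an adjusted p of 0.111 by limma, and the log2(FPKM + 1) scale understates a ratio at this level. Without the mean-variance trend in the model, the same difference had an adjusted p of 0.025, the only alternative in which it passed for both groups together. With a pseudocount of 0.1 the difference was -0.62, with an adjusted p of 0.14 by limma.

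TGFBR3 (betaglycan), a co-receptor that presents ligand to TGFBR2, was below the minimum. Its FPKM was 0.737 and 0.893 in WT, 0.797 and 0.799 in SNAI1_KO_1, and 1.30 and 0.79 in SNAI1_KO_2. The groups overlapped, with 1 library at 1.76 times WT and the others between 0.88 and 1.08 times, and the adjusted p without the filter was 0.798.

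Of the 6 genes tested, 3 had all 4 knockout libraries above both WT libraries and 1 had all of them below. Over all genes tested these shares were 16.9% and 17.1%, or 34% in either direction.

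**Figure D2:**
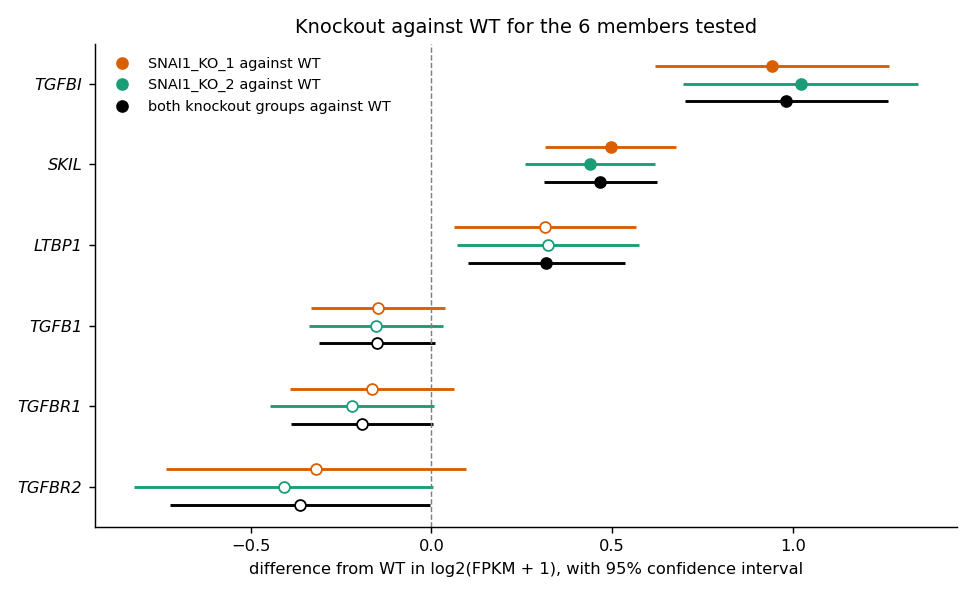
Log2 differences on the log2(FPKM + 1) scale (horizontal axis) of each knockout group and of both together against WT, with 95% intervals from limma, for the 6 TGF-β genes tested. Filled points passed an adjusted p of 0.05 and open points did not. TGFBI and SKIL are filled in all 3 comparisons, and LTBP1 for both groups together.

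Because FPKM is scaled by length, levels can be set beside each other. In WT, mean FPKM (± SD, n = 2) was 63.2 ± 29.0 for TGFB1, 26.8 ± 2.52 for SKIL, 19.8 ± 3.64 for TGFBR1, 13.1 ± 1.99 for LTBP1 and 1.87 ± 0.24 for TGFBI. It was 1.47 ± 0.034 for TGFBR2, 1.24 ± 0.0077 for TGFB3, 0.815 ± 0.11 for TGFBR3 and 0.0804 ± 0.029 for TGFB2. No neighbours in this WT order had overlapping values in the libraries. The type I receptor mRNA thus stood well above that of the type II receptor in WT, and did so in the knockout groups, at 17.5 ± 2.19 against 0.978 ± 0.037 in SNAI1_KO_1 and 16.9 ± 4.12 against 0.859 ± 0.014 in SNAI1_KO_2. In both knockout groups the values of TGFBR1 and LTBP1 overlapped, and TGFBI kept its place between LTBP1 and the low genes. In SNAI1_KO_2 the values of TGFB1 and SKIL also overlapped, with TGFB1 at 36.3 and SKIL at 39.15 in the first table.

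Between SNAI1_KO_2 and SNAI1_KO_1, none of the 6 genes was called by limma, and neither was any of the 13909 genes (0 called and 0%, 521 at an unadjusted p under 0.05). The difference, as SNAI1_KO_2 minus SNAI1_KO_1 on the log2 scale, was 0.08 for TGFBI (95% interval -0.24 to 0.40), -0.06 for SKIL (-0.24 to 0.12), 0.0084 for LTBP1 (-0.24 to 0.26) and -0.09 for TGFBR2 (-0.50 to 0.32). All of these intervals include 0, and their widths limit what could be told apart.

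The genes around these 9 were taken from a list of 70 pathway genes in 6 roles, all of them found, of which 59 were tested. For both knockout groups against WT, 39 of the 59 passed, 19 higher and 20 lower, with a median log2 difference of -0.14. As a share this was 66.1%, beside the 31.3% of all genes tested. The list was chosen with earlier results of these data known, so no conclusion is drawn from the higher share. Without WT of the first table, the number that passed was 21, and without WT of the second it was 20. The count was 28 (12 higher, 16 lower), or 47.5%, for SNAI1_KO_1, beside 23.9% of all genes tested. For SNAI1_KO_2 it was 32 (14 higher, 18 lower), or 54.2%, beside 25.5%. These comparisons share their WT libraries. From each role, up to 3 genes with the largest differences are named, among those called that moved in 1 direction in all 4 within-table differences.

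**Figure D3:**
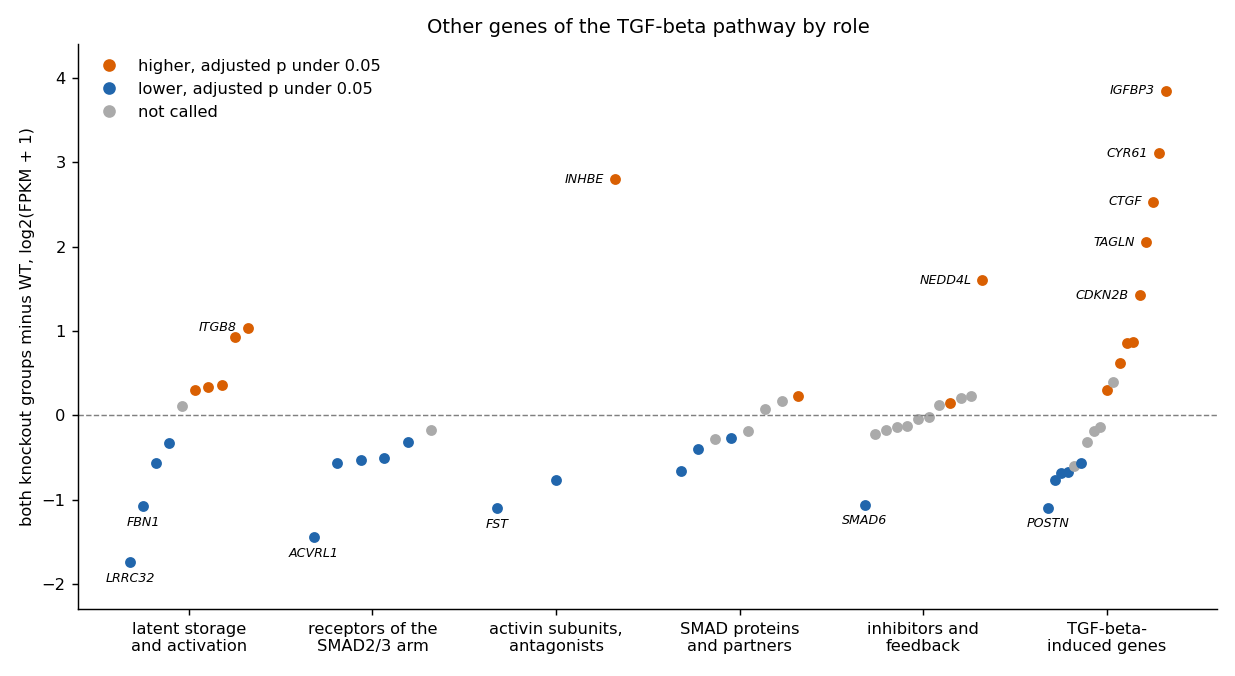
Log2 difference of both knockout groups minus WT on the log2(FPKM + 1) scale (vertical axis) for the pathway genes tested, with 1 point per gene, by role, and with 1 induced gene not shown. Orange points were called higher, blue points lower and grey points were not called. The 6 receptor points all lie below 0, and the induced genes shown run from -1.09 (POSTN) to 3.85 (IGFBP3).

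Among the genes of latent storage and activation, 10 of 13 were tested, 5 were higher, 4 lower and 1 was not called. LRRC32 (GARP), which anchors latent TGF-β on the cell surface, had an FPKM of 3.85 and 2.58 in WT and 0.155 to 0.339 in the knockout libraries (log2 difference -1.74, adjusted p = 0.00301 by limma). FBN1, the microfibril protein to which latent complexes attach, fell from 7.10 and 6.94 to between 2.00 and 3.82 (-1.07, adjusted p = 0.00351). ITGB8, a subunit of an integrin that activates latent TGF-β, rose from 0.618 and 0.576 to between 2.18 and 2.49 (1.04, adjusted p = 0.00433). Called genes of this role thus lay in both directions.

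Of 8 other receptors and co-receptors of the wider TGF-β family, 6 were tested, 5 were lower and 0 higher, with a median log2 difference of -0.52. Over all genes tested, 15.4% were called lower and the median was -0.05. All 6 had every knockout library below both WT libraries, as did 17.1% of all genes tested. The list was chosen with earlier results of these data known, so no conclusion is drawn from these counts. ENG (endoglin) was named because it was the 1 not called. Its FPKM was 2.38 to 2.40 in WT and 1.71 to 2.34 in knockout (adjusted p = 0.364 by limma). ACVRL1 (ALK1), a type I receptor best known in endothelium, fell from 2.69 and 2.23 to between 0.161 and 0.380 (-1.44, adjusted p = 0.00337 by limma). The endothelial markers summed to 2.20 to 2.51 in WT and 2.02 to 2.25 in knockout, with TEK the 1 of 3 at a mean FPKM of at least 1. ACVR1 (ALK2) fell from 10.7 and 7.33 to between 4.803 and 6.62 (-0.56, adjusted p = 0.0111), and the type II activin receptor ACVR2A from 9.22 and 7.17 to between 4.98 and 6.39 (-0.53, adjusted p = 0.0195). Leaving out a library ended the ACVR1 call for WT of the first table (adjusted p = 0.10), WT of the second (0.0534), SNAI1_KO_1 of the first (0.0536) and SNAI1_KO_2 of the first (0.0505), and the ACVR2A call for the same libraries (0.151, 0.087, 0.0655 and 0.0601) and SNAI1_KO_2 of the second (0.0759).

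Among activin subunits and antagonists, 3 of 5 were tested and all were called, 1 higher and 2 lower. INHBE, an inhibin β subunit best known as a liver-secreted protein, rose from 0.895 and 1.24 in WT to between 10.9 and 18.9 (log2 difference 2.80, adjusted p = 0.000345 by limma). FST (follistatin), which binds and neutralizes activins, fell from 70.9 and 66.0 to between 25.6 and 37.9 (-1.10, adjusted p = 0.00172). FSTL3, a related antagonist, fell from 9.33 and 11.6 to between 4.26 and 7.56 (-0.76, adjusted p = 0.0147). The FSTL3 call was lost without WT of the first table (adjusted p = 0.126) or of the second (0.10).

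Of 8 SMAD proteins and partners, all tested, 1 was higher, 3 were lower and 4 were not called. SMAD2 fell from 51.8 and 57.6 to between 30.1 and 38.1 (log2 difference -0.66, adjusted p = 0.00721 by limma), a call lost without the block (0.0569) and without the filter (0.0638). SMAD4, the shared partner of receptor-activated SMADs, fell from 43.5 and 41.7 to between 29.8 and 34.9 (-0.39, adjusted p = 0.0061). Its call was lost without the block (0.143) and without the WT library of the second table, where the difference was -0.36. SMAD3 was not called, with an FPKM of 16.9 and 26.1 in WT and 14.5 to 31.9 in the knockout libraries (adjusted p = 0.519), and was named after its values were seen, as the partner of SMAD2. CREBBP, a co-activator of SMADs, went from 24.8 and 35.2 to between 20.2 and 30.4, with overlap (-0.27, adjusted p = 0.0404). Its call was lost on leaving out any 1 library (adjusted p from 0.0605 without SNAI1_KO_1 of the first table to 0.198 without WT of the second) and under median-ratio scaling (0.0777) and quantile normalization (0.0524).

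Of 13 inhibitors and feedback genes, 12 were tested, 2 were higher, 1 was lower and 9 were not called. SMAD6, an inhibitory SMAD that acts mainly on the BMP arm, fell from 98.3 and 144 to between 45.6 and 70.8 (log2 difference -1.06, adjusted p = 0.000269 by limma), a call lost without the block (0.0666). SMAD7, which acts on TGF-β receptors and was named after its values were seen for contrast with SMAD6, was at 28.5 and 51.9 in WT and 26.2 to 43.5 in the knockout libraries (-0.14, adjusted p = 0.303). NEDD4L, a ubiquitin ligase for SMADs, had an FPKM of 16.1 and 11.1 in WT and of 23.6, 31.4 and 34.5 in 3 knockout libraries. It was at 127 in SNAI1_KO_2 of the first table (log2 difference 1.6, adjusted p = 0.0415 by limma). This call was lost with a pseudocount of 10 (adjusted p = 0.0653), without the mean-variance trend (0.07875) and with the knockout libraries as 1 group (0.0774). Its call was lost without WT of the first table (adjusted p = 0.233), WT of the second (0.189) or SNAI1_KO_1 of the second (0.0759). FKBP1A, which binds unstimulated type I receptors, was called at a log2 difference of 0.15 (adjusted p = 0.0494), and the call was lost on leaving out any 1 library (0.0903 to 0.223).

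Of 23 TGF-β-induced genes, 20 were tested, 10 were higher, 5 lower and 5 were not called, with a median log2 difference of 0.34. IGFBP3, a secreted binding protein of insulin-like growth factors, rose from 0.813 and 0.495 to between 20.8 and 25.0, or 29.7 to 42.4 times WT (log2 difference 3.85, adjusted p = 0.000139 by limma). CYR61, a matrix-associated protein that other pathways also induce, rose from 7.76 and 6.96 to between 62.8 and 89.9 (3.10, adjusted p = 0.000281). The list was not of one direction, since POSTN (periostin), named after its values were seen as the largest fall, went from 8.39 and 7.30 to between 2.84 and 3.42 (-1.09, adjusted p = 0.00187).

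**Figure D4:**
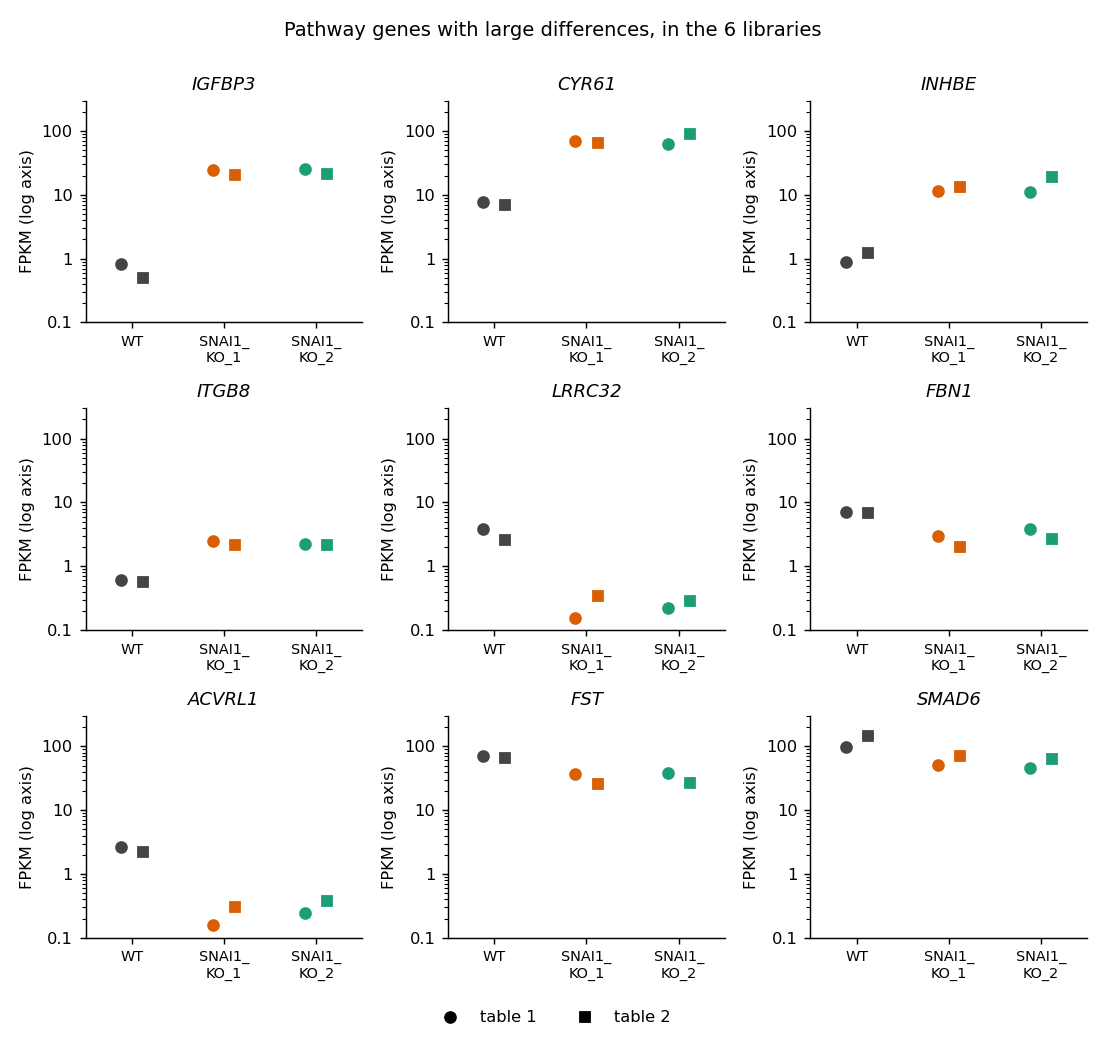
FPKM of 9 pathway genes (vertical axes, log scale) in the WT, SNAI1_KO_1 and SNAI1_KO_2 libraries, with 1 point per library, circles for the first table and squares for the second. The 4 knockout points lie above both WT points for IGFBP3, CYR61, INHBE and ITGB8 and below them for LRRC32, FBN1, ACVRL1, FST and SMAD6.

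Among the 6 genes tested, TGFBI had the largest rise and TGFBR2 the most negative difference on the log2(FPKM + 1) scale. Over the 6 libraries, after centring in each table, the genes tested whose log2(FPKM + 1) followed TGFBI most closely were OLFML3, ANO6 and LAMA5, with Pearson r from 0.9998 to 0.9999. For TGFBR2 they were PCBP4, FBLN1 and LZTR1, with r from 0.9992 to 0.9994. These values are descriptions over 6 libraries that share their tables and their groups, picked as the highest of 13909.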

How the data were processed

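RNA-seq was performed on 6 libraries of H1 cells, each made from 2 ug of total RNA. The authors deposited FPKM values per gene symbol in 2 tables (38100 and 58324 gene rows), each with 1 library per group. A heading line of the second table names the unit. The submitters' processing notes name hg19, BWA, Bowtie and RSEM, and the annotation and strand setting are not given in the sources used here. Overlapping and near-identical genes could therefore share fragments.

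Symbols listed more than once (94 and 340) were left out. A linear model of log2(FPKM + 1) with 3 group means and the table as a block was fitted with limma 3.58.1 in R 4.3.3, with a mean-variance trend, 2 residual and 3.34 prior degrees of freedom. Two-sided p-values received Benjamini-Hochberg adjustment over the 13909 genes tested. This scale understates changes of genes with low values. The pairing comes from the shared table: differences between tables of the 3 groups correlated across genes with r = 0.616, 0.666 and 0.676. The model was tested on simulated data. Count-based tests were not run, because FPKM values carry no read totals.

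The 9 genes, the pathway and marker lists and the rule for named genes were chosen with earlier results of these data known. Named were SNAI1, the 9 genes, up to 3 called genes per role with the largest log2 difference in 1 direction in all 4 within-table differences, and the 3 genes most correlated with the most positive and the most negative log2 difference among the 9. Of the named genes, 1 is counted but not reported here. The alternatives tried were quantile normalization, pseudocounts of 0.1 and 10, omission of the block, the filter or the trend, a minimum mean FPKM of 5, median-ratio scaling, the knockout libraries as 1 group, and leaving out each library.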

Additional observations from a re-analysis of the deposited data

How the results depend on the processing

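With no replicate block, the number of genes called was 576 for SNAI1_KO_1, 698 for SNAI1_KO_2 and 1065 for both groups against WT, against 3327, 3549 and 4348 with it. Of the 9 TGF-β genes, 0, 1 and 1 were then called, and 15 of the pathway genes. The SNAI1_KO_1 calls of TGFBI and SKIL were thus both lost. For both groups together, the calls of ACVR1, ACVR2A, FSTL3, SMAD2, SMAD4, CREBBP, NEDD4L, SMAD6 and FKBP1A were among those lost. With no filter on low values the counts were 1008, 1216 and 2139 genes, with 1 TGF-β gene in each knockout group and 19 pathway genes. Calls for both groups lost in that setting included LTBP1, ACVR1, ACVR2A, FSTL3, SMAD2, CREBBP, NEDD4L and FKBP1A. A mean FPKM of at least 5 left 1 TGF-β gene called in each knockout group, since TGFBI was then not tested. Leaving out 1 library in turn gave 962 to 2379 genes for SNAI1_KO_1, 1135 to 2693 for SNAI1_KO_2 and 1728 to 2840 for both. The TGF-β genes called were then 0 to 2, 0 to 2 and 1 to 2, and the pathway genes 20 to 29. The lowest values for both groups were those without the WT library of the second table (1 TGF-β gene, 20 pathway genes), and without WT of the first there were 21 pathway genes. With 1 library of a group left out, the other was assumed to vary like the rest.

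Among single named genes, 474 of 570 values were counted as unchanged. For genes tested, this means the same direction and side of the threshold, so values never past it count too. For TGFB2, TGFB3 and TGFBR3, which were not tested, no side of a threshold was judged. The values of these genes without the filter were counted as unchanged without any comparison. A gene's comparisons with WT were counted separately. Of the rest, 92 were no longer past the threshold and 2 were newly past it (both TGFBR2 without the mean-variance trend). Another 2 moved with the pseudocount (TGFB2), and 0 tested values changed direction. A pseudocount of 10 shrank the log2 difference of TGFBI to 0.31 and that of LTBP1 to 0.20. Of the 92, 52 came from leaving out a library and 17 from omitting the block, and the cause was not tested. Median-ratio scaling and quantile normalization moved the median of all genes to -0.009 and -0.068. With 2 libraries per group and no read totals, small differences and genes under 1 FPKM were not resolved.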

Other observations

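Of the pathway genes under the expression minimum, some had groups that did not overlap. PTHLH, which encodes a parathyroid hormone-related peptide, was listed at 0 in both WT libraries and at an FPKM of 1.87 and 0.80 in SNAI1_KO_1 and 1.10 and 1.40 in SNAI1_KO_2. ANGPTL4, an inhibitor of lipoprotein lipase, had an FPKM of 1.02 and 0.951 in WT and of 0.142 to 0.323 in the 4 knockout libraries. INHBA, a subunit of activin A, followed the table, at 0 to 0.0436 in the first and 0.492 to 0.921 in the second. These genes were seen after the data were examined and were not tested.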
